A study of Mus musculus with 18 samples.

Results

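The p53 pathway was followed through 8 mouse genes: Trp53 itself, its ubiquitin ligase Mdm2, the cell cycle inhibitor Cdkn1a, the cyclin G1 gene Ccng1, the stress gene Trp53inp1 and the small Gadd45 family, Gadd45a, Gadd45b and Gadd45g. They were taken by symbol, and all 8 were found among the 12019 genes of the authors' deposited table. RNA had been sequenced from saline-perfused whole livers of C57BL/6J mice that entered the study at 21 weeks of age and were kept for 8 weeks in 1 of 5 groups. The labels list 3 libraries under caloric restriction of 30%, 3 under rapamycin at 42 mg/kg/day, 3 under metformin at 37.5 mg/kg/day, 3 under TM5614 at 20 mg/kg/day and 6 from mice fed ad libitum, the control. The drugs were given in the chow, and sex, batch and hour of collection are not stated. Rapamycin inhibits the kinase mTOR, metformin is a glucose-lowering biguanide, and TM5614 is an inhibitor of plasminogen activator inhibitor 1.

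The series text speaks of 30 mice, although its own groups add up to 18. It counts as many mice in a group as there are libraries, but no label ties a library to an animal, so an adjusted p measures the spread between libraries. Values are means over a group, in gene counts divided by size factors (called normalized counts here), and their sum over all genes is 8368017 under restriction, 7942631 under rapamycin, 8320118 under metformin and 7783345 under TM5614, against 7804524 in the control. The smallest means above 0 lie between 0.299 and 0.398 in the groups of 3 libraries and between 0.315 and 0.350 in the control, for which the labels list 6, so how many control libraries stand behind a control mean is not known. A further deposited table has 18 columns of values per library whose names match no label, so it was not used, no SD or standard error is given, and no intervention was tested against another. Every call below is the authors' own comparison with the ad libitum control, at an adjusted p under 0.05.

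p53 is a transcription factor that is made and destroyed continuously. Its level is set mainly through the stability of the protein, because Mdm2, a target of p53, marks p53 for the proteasome and so closes a feedback loop. Cdkn1a encodes p21, which blocks cyclin-dependent kinases and PCNA. The GADD45 proteins bind p21, PCNA and the kinase MAP3K4, upstream of p38 and JNK. Cdkn1a and the Gadd45 genes also respond to many signals that do not pass through p53, among them growth factors, inflammatory signals and stress hormones, and the liver Cdkn1a transcript follows the daily clock.

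Promoter sequences were read from RefSeq for build GRCm38.p6, in windows that run 250 bases before to 50 bases after an annotated start. Of the 8 genes 7 matched, with 2 windows for Cdkn1a, and Trp53inp1 did not. A p53 response element, taken as 20 bases without a spacer and with at most 1 position off the consensus, stood in 29 of 32851 windows of all genes, or 0.0883%. Of the 8 windows here it stood in the upstream one of Cdkn1a, at chr17:29090928-29090947, and in the one of Ccng1, at chr11:40755462-40755481. The nearest matches in the other 6 windows were 3 to 5 positions off. Both elements are shown in capitals within the bases upstream of the start.
Cdkn1a, chr17:29090729-29090975, plus strand: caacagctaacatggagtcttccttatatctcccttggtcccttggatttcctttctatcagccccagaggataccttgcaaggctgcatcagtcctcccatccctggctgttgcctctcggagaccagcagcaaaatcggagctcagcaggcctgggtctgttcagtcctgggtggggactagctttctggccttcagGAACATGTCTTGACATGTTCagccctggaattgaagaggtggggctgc
Ccng1, chr11:40755312-40755536, minus strand: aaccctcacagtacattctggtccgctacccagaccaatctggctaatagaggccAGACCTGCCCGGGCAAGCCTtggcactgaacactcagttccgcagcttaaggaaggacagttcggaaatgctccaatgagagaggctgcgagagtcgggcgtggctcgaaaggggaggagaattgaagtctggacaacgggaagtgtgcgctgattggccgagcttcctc

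A further 3 upstream stretches are shown because they belong to genes with the widest differences between groups. Capitals mark the TATA box (TATAAA), the GC box (GGGCGG) and the CCAAT box (CCAAT), each on either strand. These were found in 3, 4 and 6 of the 8 windows, against 13.6%, 35.7% and 37.4% of all windows.
Gadd45a, chr6:67037458-67037657, minus strand: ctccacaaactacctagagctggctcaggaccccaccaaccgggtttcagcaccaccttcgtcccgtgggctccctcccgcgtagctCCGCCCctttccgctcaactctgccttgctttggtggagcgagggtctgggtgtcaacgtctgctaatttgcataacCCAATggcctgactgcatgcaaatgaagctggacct
Gadd45b, chr10:80929841-80930072, plus strand: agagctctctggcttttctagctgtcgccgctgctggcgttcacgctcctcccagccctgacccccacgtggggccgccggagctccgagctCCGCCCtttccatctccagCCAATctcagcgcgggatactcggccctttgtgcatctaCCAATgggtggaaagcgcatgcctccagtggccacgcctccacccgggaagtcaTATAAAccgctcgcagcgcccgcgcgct
Cdkn1a downstream start, chr17:29093519-29093768, plus strand: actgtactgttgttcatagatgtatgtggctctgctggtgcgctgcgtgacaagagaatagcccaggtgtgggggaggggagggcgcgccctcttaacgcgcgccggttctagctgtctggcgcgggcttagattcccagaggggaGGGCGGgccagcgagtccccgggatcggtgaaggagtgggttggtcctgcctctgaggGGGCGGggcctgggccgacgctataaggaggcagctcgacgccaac
An E-box (CACGTG), the core of the clock element, stood in 3 of the 8 windows, against 7.15% of all windows. These were the windows of Gadd45b, Gadd45g and Trp53, and neither window of Cdkn1a held one. Neither the AP-1 site (TGANTCA) nor the full cyclic AMP element (TGACGTCA) was in any of the 8, against 7.81% and 1.79% of all. A match of letters is not a bound site, and a window without one says nothing about the factor.

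The 8 genes ranged from nearly flat to widely spread over the 5 groups. The ratio of the highest to the lowest group mean was 10.4 for Gadd45b, 7.48 for Cdkn1a, 6.12 for Trp53inp1 and 5.89 for Gadd45a, per the authors' deposited table. Each of these 4 ratios exceeded that of at least 98.7% of the 11201 genes with a mean of 10 or more, whose median ratio was 1.41. The ratio was 2.49 for Gadd45g and 1.78 for Trp53, which exceeded those of 92.3% and 77.6% of these genes. It was 1.32 for Ccng1 and 1.21 for Mdm2, which lie below the median gene. A ratio of group means holds the spread between libraries as well as any effect of the groups.

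**Figure D1:**
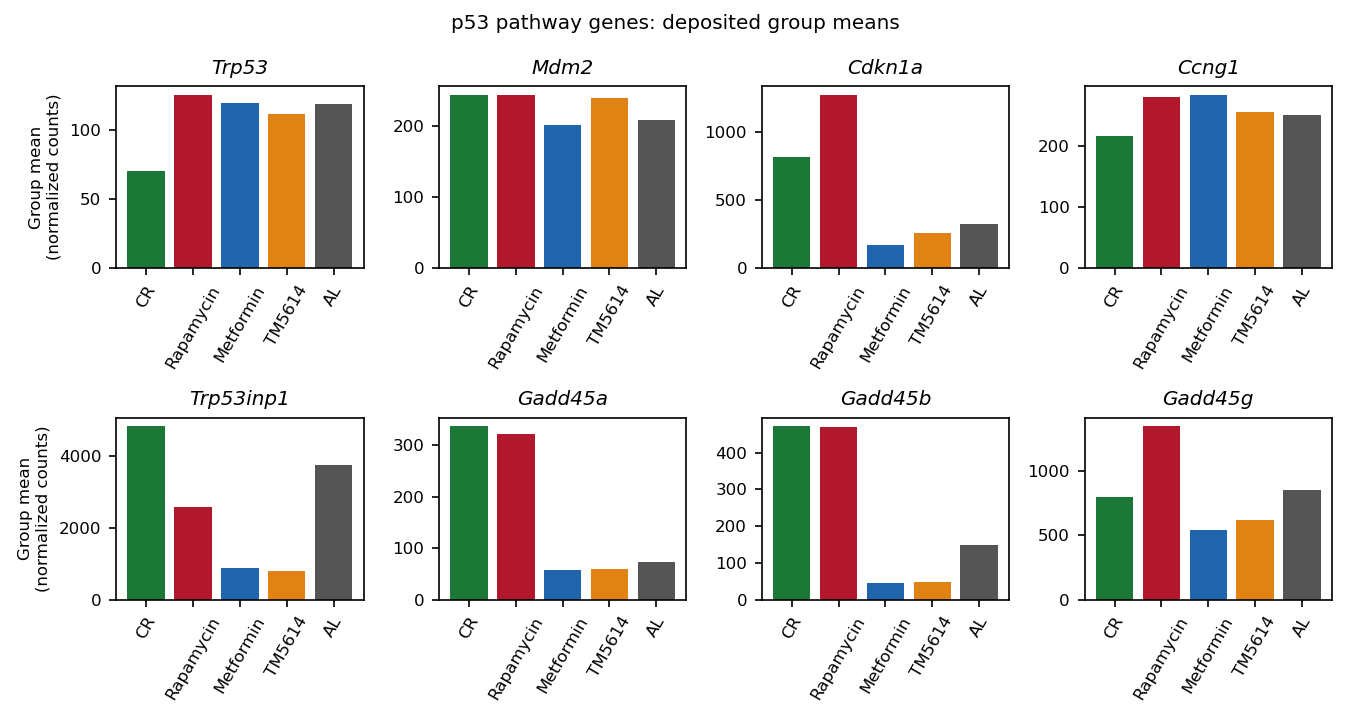
Bars give the deposited group mean (normalized counts, own axis for each gene) of the 8 genes under caloric restriction (CR), rapamycin, metformin and TM5614 and in ad libitum (AL) livers. Gadd45a and Gadd45b stand at 321 to 472 under CR and rapamycin and at 45.3 to 148 in the other groups, while Mdm2 and Ccng1 are nearly level.

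Per kilobase of exon, and so on a scale that allows genes to be compared, Gadd45g had the highest level in ad libitum livers, at 728 normalized counts per kb from the authors' deposited table. Trp53inp1 followed at 580, with Gadd45b at 93.3, Cdkn1a at 92.4, Ccng1 at 71.4, Gadd45a at 41.8, Mdm2 at 40.9 and Trp53 at 29.4. In rapamycin livers Cdkn1a stood at 359 on this scale. Gadd45g and Trp53inp1 still stood above it there, at 1152 and 398. Exon lengths are the union of exons of GENCODE vM21 on mm10, 1.17 kb for Gadd45g and 6.47 kb for Trp53inp1, and the distance between neighbours in this order cannot be set against a spread.

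Trp53 RNA fell under caloric restriction, and no other comparison called it. Whether restriction differs from the drugs in this could not be tested. The gene lies on mm10 at chr11:69580359-69591873, plus strand. Trp53 had means of 70.8 normalized counts under restriction, 126 under rapamycin, 119.6 under metformin and 112 under TM5614, against 119 in ad libitum livers, per the authors' deposited table. The means of the 3 drug groups lie close to that of the control, and the mean under restriction is the lowest. The log2 fold change under restriction was -0.74, with an adjusted p of 0.0114 from DESeq2, per the authors' deposited table, while the adjusted p was 0.946 for rapamycin, 0.998 for metformin and 0.896 for TM5614. It was the single call among the 6 of the 8 genes with an adjusted p under restriction, in a comparison in which 19.0% of all tested genes were called and 9.24% were called lower. A share of 1 in 6 is near that background.

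Mdm2, at chr10:117688875-117710758 on the minus strand, had means of 244 normalized counts under restriction, 244 under rapamycin, 202 under metformin and 239 under TM5614, against 208 in ad libitum livers, per the authors' deposited table. No comparison was called, with log2 fold changes of 0.23, 0.23, -0.04 and 0.20 in that order, and its adjusted p values were at least 0.456, per the authors' deposited table. Ccng1, a direct p53 target whose product recruits the phosphatase PP2A to Mdm2, lies at chr11:40748552-40755311 on the minus strand. The authors' deposited table gives Ccng1 216 normalized counts under restriction, 279.6 under rapamycin, 284 under metformin and 255 under TM5614, against 251 in ad libitum livers, with adjusted p values of between 0.313 and 0.955. The RNA of these classical p53 targets thus differed by no more than 1.32-fold between any pair of group means.

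Whole liver holds several cell types, and a lower mean of Trp53 cannot be told apart between fewer cells of a type and less RNA per cell. Of 11 Kupffer and macrophage markers 4 of the 10 with an adjusted p fell under restriction, where 9.24% of all tested genes were called lower, the 11 summed to 1172 normalized counts under restriction against 2305 in ad libitum livers, and none was at 0 in any group, per the authors' deposited table. Of 10 proliferation genes with an adjusted p 2 fell under restriction, where 9.24% of all tested genes were called lower. The log2 fold changes of the 11 in the table ran from -1.47 to -0.02 there, with a median of -0.64. The 2 that fell had means of 18.5 for Mcm3 and 7.34 for Mcm5 under restriction. In ad libitum livers these were 39.4 and 20.2, per the authors' deposited table. The part of either in the fall of Trp53 was not tested. Pancreatic markers, which bear on every comparison with the control, summed to 3.43 normalized counts under restriction, 4.59 under rapamycin, 3.75 under metformin and 2.49 under TM5614, against 487 in ad libitum livers, per the authors' deposited table. Of these 8 markers, 6 or 7 were at 0 in each treated group and none was at 0 in the control, and the part of this in any result was not tested.

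Cdkn1a had its highest means under rapamycin and restriction and its lowest under metformin, and no comparison passed the test. It lies at chr17:29090976-29100727 on the plus strand. In the authors' deposited table Cdkn1a had means of 819 normalized counts under restriction, 1276 under rapamycin, 171 under metformin and 261 under TM5614, against 328 in ad libitum livers. The rapamycin mean is 3.89-fold and the restriction mean 2.49-fold that of the control, whereas the control mean is 1.92-fold that of metformin and 1.26-fold that of TM5614. The log2 fold change was 1.96 for rapamycin (adjusted p = 0.0784), 1.32 for restriction (0.123), -0.94 for metformin (0.912) and -0.33 for TM5614 (0.836), all from DESeq2, per the authors' deposited table. None of the 8 genes was called under rapamycin, where 1.39% of all tested genes were, or under metformin, where 0.245% were. Unadjusted p values and a second tool's calls were not analysed here, as the authors' deposited table gives adjusted p values alone.

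A difference of this size usually passed under restriction and seldom under rapamycin or metformin. Among genes with a control mean of at least 100 and a log2 fold change of at least 1 in either direction, the authors' deposited table called 87.5% of 360 under restriction, 57.1% of 119 under TM5614, 24.1% of 79 under rapamycin and 17.8% of 45 under metformin. Of 11201 genes only 28 had a larger positive log2 fold change than Cdkn1a under rapamycin, and 177 under restriction. An adjusted p above 0.05 does not show that Cdkn1a had the same level in these groups.

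**Figure D2:**
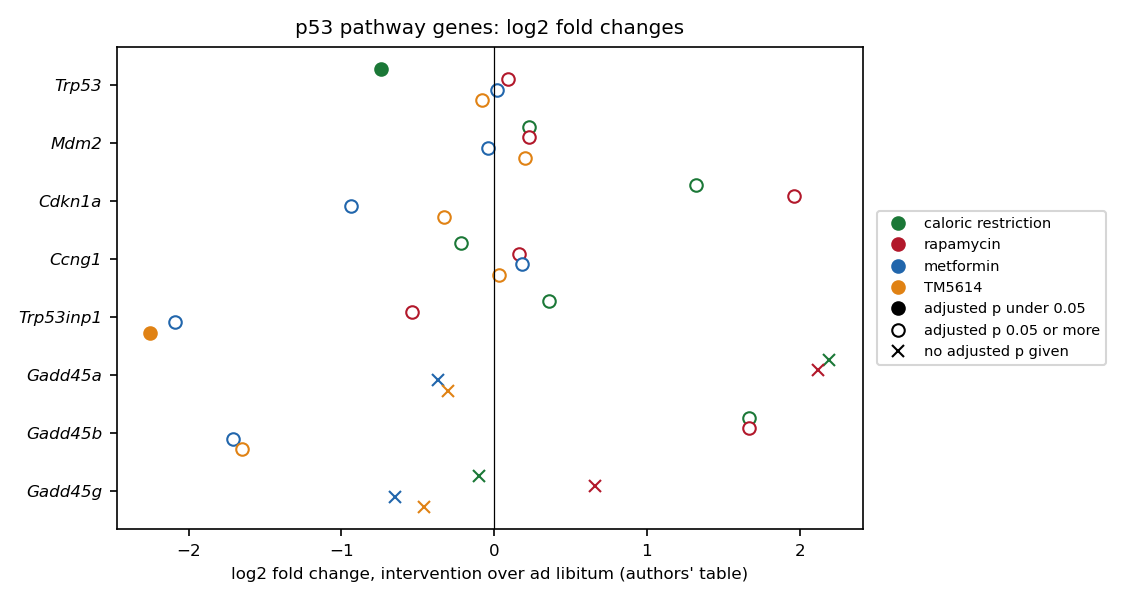
Each mark is the log2 fold change of 1 gene in 1 intervention over ad libitum, as deposited, filled where the adjusted p is under 0.05, open where it is not and crossed where none is given. Only Trp53 under restriction (-0.74) and Trp53inp1 under TM5614 (-2.25) are filled.

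Trp53inp1, which encodes a stress-induced nuclear protein that promotes p53 activity and autophagy, fell under TM5614. The gene lies at chr4:11156431-11174379 on the plus strand. Trp53inp1 had means of 4824 normalized counts under restriction, 2576 under rapamycin, 883 under metformin and 789 under TM5614, against 3757 in ad libitum livers, per the authors' deposited table. Metformin and TM5614 stand below the other 3 groups, with control means 4.26-fold and 4.76-fold theirs. The log2 fold change was -2.25 under TM5614 with an adjusted p of 0.0179 from DESeq2, per the authors' deposited table, and only 16 of 11201 genes had a larger negative one. Under metformin it was -2.09 with an adjusted p of 0.144, and the values for restriction (0.36, adjusted p = 0.757) and rapamycin (-0.54, adjusted p = 0.834) did not pass either, per the authors' deposited table. This was the single call among the 6 genes with an adjusted p under TM5614, where 3.96% of all tested genes were called and 1.95% were called lower, and 1 gene of 6 says little of the set. Whether TM5614 and metformin differ in their effect on Trp53inp1 could not be tested.

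Gadd45a and Gadd45b shared a pattern of high means under restriction and rapamycin, while the mean of Gadd45g was above the control under rapamycin alone. All 3 encode small acidic stress sensors that activate MAP3K4. Gadd45a, at chr6:67035096-67037457 on the minus strand, had means of 337 normalized counts under restriction, 321 under rapamycin, 57.2 under metformin and 59.8 under TM5614, against 73.7 in ad libitum livers, per the authors' deposited table. The restriction and rapamycin means were 4.58-fold and 4.35-fold the control mean. Log2 fold changes in the authors' deposited table were 2.19 for restriction, 2.12 for rapamycin, -0.37 for metformin and -0.30 for TM5614, with no adjusted p for Gadd45a in any comparison, so that it could be called in none. Of its exon bases 337 overlap E230016M11Rik on the opposite strand, which had 9.78 normalized counts under restriction and 6.78 under rapamycin, against 3.45 in ad libitum livers, per the authors' deposited table. The strand setting of the counting is not given in the sources used here, so reads of the overlap cannot be assigned. Cdkn1a likewise shares 273 exon bases with an antisense gene for which no value was analysed here.

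Gadd45b, at chr10:80930073-80932204 on the plus strand and known for its induction by NF-kappaB, had the widest range of the 8. In the authors' deposited table Gadd45b had means of 472 normalized counts under restriction, 471 under rapamycin, 45.3 under metformin and 47.2 under TM5614, against 148 in ad libitum livers. The restriction and rapamycin means were each 3.18-fold the control mean, which was in turn 3.28-fold that of metformin and 3.14-fold that of TM5614. No comparison passed, per the authors' deposited table, at log2 fold changes of 1.67 for restriction (adjusted p = 0.199), 1.67 for rapamycin (0.487), -1.71 for metformin (0.833) and -1.65 for TM5614 (0.326).

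Gadd45g, at chr13:51846678-51848468 on the plus strand, had means of 798 normalized counts under restriction, 1351 under rapamycin, 543 under metformin and 622 under TM5614, against 854 in ad libitum livers, per the authors' deposited table. Its log2 fold changes were -0.10, 0.66, -0.65 and -0.46 in that order, none with an adjusted p, per the authors' deposited table. Unlike those of its relatives, its mean under restriction lies close to that of the control. DESeq2 leaves out an adjusted p for genes with low counts or with an extreme count in a library. Low counts are not the case for Gadd45g in any comparison, since at least 5761 genes with a lower mean of the compared pair of groups have an adjusted p in each, per the authors' deposited table. For Gadd45a the number is 7239 under restriction, 5762 under rapamycin and 2952 under TM5614, so low counts are not the case there either, while under metformin it is 25, per the authors' deposited table. Apart from Gadd45a under metformin, this leaves the other reason DESeq2 has, an extreme count in a library, and whether the means of both genes rest on few libraries was not tested. Of 8563 genes with a mean of at least 50, 13 lack an adjusted p in all 4 comparisons there, per the authors' deposited table, and Gadd45a and Gadd45g are 2 of them.

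**Figure D3:**
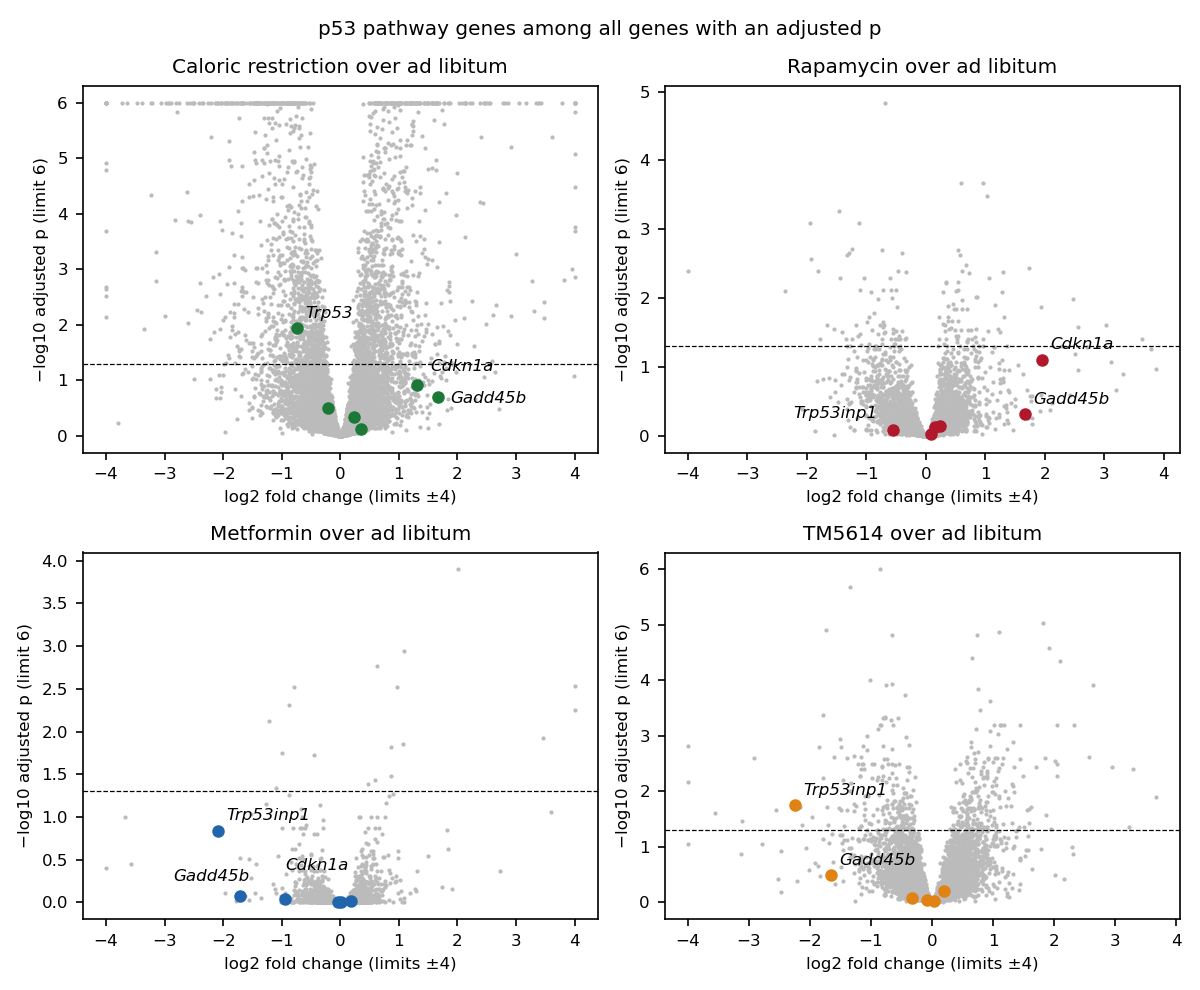
Each grey point is a gene with an adjusted p, placed by log2 fold change over ad libitum and by -log10 adjusted p, with values beyond 4 and beyond 6 drawn at those limits, and coloured points are the p53 pathway genes that have one. The dashed line marks an adjusted p of 0.05, which Trp53 passes under restriction and Trp53inp1 under TM5614.

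Over the 8 genes the median log2 fold change was 0.30 under restriction, 0.45 under rapamycin, -0.51 under metformin and -0.32 under TM5614, per the authors' deposited table. The median over the 11201 genes was 0.01 under restriction, rapamycin and metformin and -0.01 under TM5614. A log2 fold change of at least 1 was reached by 3 of the 8 under restriction and by 3 under rapamycin, and one of -1 or less by 2 of the 8 under metformin and by 2 under TM5614. All 4 comparisons use the same control mean, so these shifts are not independent of one another. With the threshold on the adjusted p moved to 0.01, as tried below, 11.9% of all tested genes are called under restriction, 0.424% under rapamycin and 1.46% under TM5614. At 0.10 the share is 2.42% under rapamycin, 0.463% under metformin and 7.15% under TM5614, and Cdkn1a is then called under rapamycin.

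The treated groups can also be set side by side without the control. The lower of the restriction and rapamycin means was 9.98-fold the higher of the metformin and TM5614 means for Gadd45b, per the authors' deposited table. This ratio was 5.36 for Gadd45a, 3.14 for Cdkn1a and 2.92 for Trp53inp1, and it was 1.28 for Gadd45g, 1.02 for Mdm2, 0.760 for Ccng1 and 0.592 for Trp53. A ratio of at least 3 was met by 10 of 11201 genes (0.0893%), and 3 of these 10 are among the 8. This split of the groups was chosen after the values were seen, and it has no test.

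Calls among other targets of p53 were few outside restriction and near the background within it. Of 36 further targets in the table, 5 rose and 2 fell under restriction, 1 rose under rapamycin, none was called under metformin among the 21 with an adjusted p, and 1 rose and 1 fell under TM5614, by DESeq2, per the authors' deposited table. The 7 of 36 called under restriction stand beside 19.0% of all tested genes, and the calls elsewhere beside 1.39% under rapamycin, 0.245% under metformin and 3.96% under TM5614. Their median log2 fold change was 0.12 under restriction, -0.08 under rapamycin, -0.11 under metformin and -0.14 under TM5614. Their median ratio of highest to lowest group mean was 1.53, against 1.41 for all genes.

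Of the arrest and feedback targets 4 of 11 rose under restriction, where 19.0% of all tested genes were called in either direction. None was called among the 10 with an adjusted p under rapamycin, the 6 under metformin and the 10 under TM5614; at shares over all genes of 1.39%, 0.245% and 3.96%, lists this short say little. The stress kinase gene Plk3 had a mean of 1675 normalized counts under restriction against 657 in ad libitum livers (log2 fold change 1.35, adjusted p = 0.0296), per the authors' deposited table. The transcription factor gene Klf4 had 84.8 under restriction against 37.3 in ad libitum livers in the authors' deposited table (1.18, adjusted p = 0.00474). Sesn2, a sestrin that restrains mTOR complex 1, rose by 0.88 on the log2 scale (adjusted p = 0.0232) and the cyclin G2 gene Ccng2 by 0.90 (adjusted p = 0.0310), per the authors' deposited table. Ccng2 is also known as a target of FOXO factors.

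None of the 12 apoptosis targets was called under restriction by DESeq2, and their most abundant members Ei24 and Perp each had a log2 fold change of 0.03, per the authors' deposited table. Casp8, the initiator caspase of death receptors, was the single gene of the list called elsewhere. The authors' deposited table gives Casp8 246 normalized counts under rapamycin (log2 fold change 0.51, adjusted p = 0.0355) and 268 under TM5614 (0.63, adjusted p = 0.00161), against 173 in ad libitum livers. Among 13 repair and metabolism targets Pank1, a pantothenate kinase, rose by 0.38 under restriction, while Pml and Fdxr fell by 0.60 and 0.47, with adjusted p values of 0.00790, 0.0266 and 0.0307, per the authors' deposited table. Sco2, which serves the assembly of cytochrome c oxidase, fell to 285 normalized counts under TM5614 against 509 in ad libitum livers (log2 fold change -0.84, adjusted p = 0.000649), per the authors' deposited table. Of 14 regulators of p53 in the table only Usp7, a deubiquitinase of p53 and Mdm2, was called, with 0.25 under restriction (adjusted p = 0.0248), per the authors' deposited table. Among all tested genes 19.0% were called under restriction, 1.39% under rapamycin and 3.96% under TM5614. Beside these shares, counts in lists of 12, 13 and 14 genes say little.

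**Figure D4:**
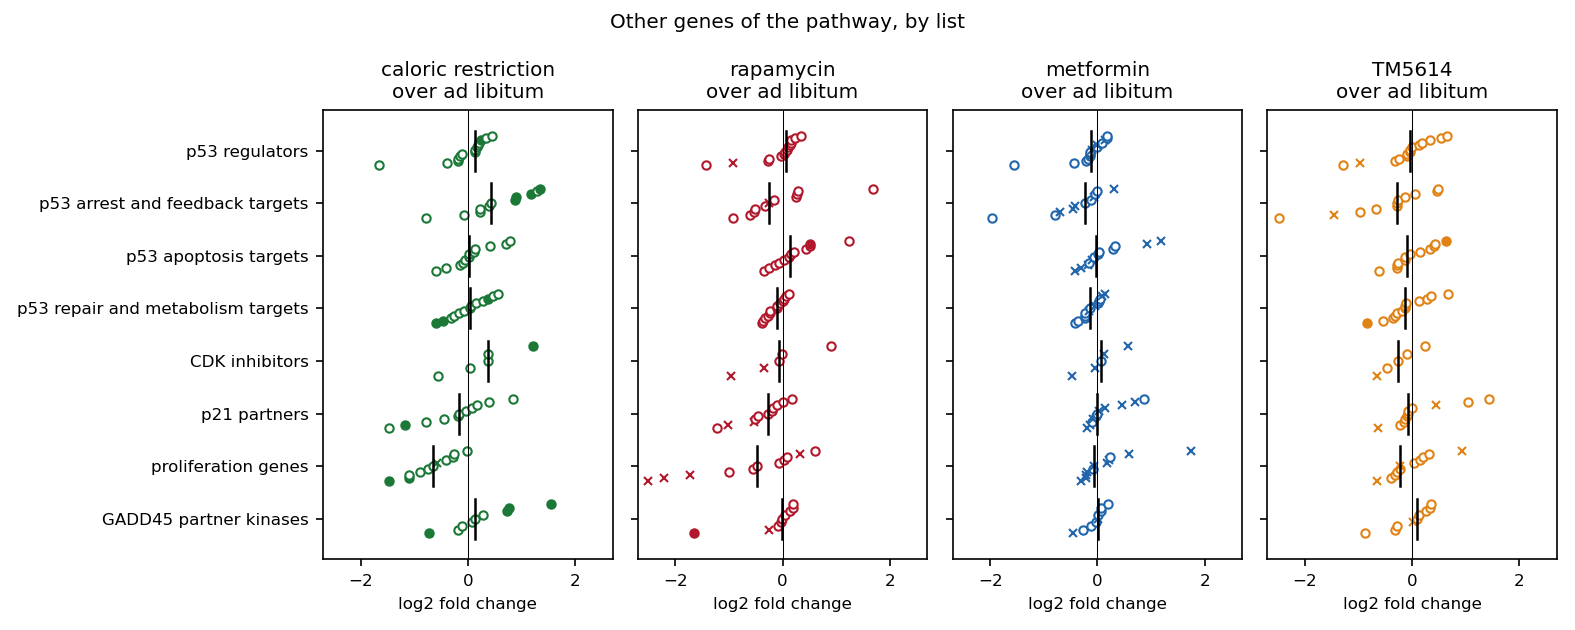
Points are log2 fold changes over ad libitum of the other genes of the pathway, by list and intervention, filled where the adjusted p is under 0.05, open where it is not and crossed where none is given, and black bars are list medians. Under restriction filled points stand in the arrest and feedback targets (4 of 11, all to the right of 0) and among the GADD45 partner kinases (3 to the right and 1 to the left). To the right also stand 1 regulator, 1 CDK inhibitor and 1 repair and metabolism target. To the left stand 2 repair and metabolism targets, 1 partner of p21 and 2 proliferation genes. Over all tested genes 19.0% were called under restriction.

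Of the genes on which p21 and the GADD45 proteins act, 1 of 11 partners of p21 and 4 of 9 kinases were called under restriction, which called 19.0% of all tested genes. Cdk6, a kinase that p21 binds, fell to 11.2 normalized counts under restriction against 25.1 in ad libitum livers (log2 fold change -1.17, adjusted p = 0.0344), per the authors' deposited table, the single partner of p21 called. Among 5 other CDK inhibitors Cdkn1c, which encodes p57, rose to 31.5 under restriction against 13.7 in ad libitum livers (1.21, adjusted p = 0.0124), per the authors' deposited table. The helicase subunit genes Mcm3 and Mcm5 fell under restriction, at log2 fold changes of -1.10 and -1.47, with adjusted p values of 0.0165 and 0.0389, per the authors' deposited table. Of 9 kinases of the GADD45 and p38 route, Map2k6, Map2k3 and Mapk14 rose under restriction and Map3k4, the partner of GADD45 itself, fell.

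Map2k6, which activates p38, was called in opposite directions in different groups. In the authors' deposited table Map2k6 had means of 116 normalized counts under restriction, 12.3 under rapamycin, 28.4 under metformin and 21.1 under TM5614, against 39.1 in ad libitum livers. Its log2 fold change was 1.56 under restriction (adjusted p = 0.000689) and -1.66 under rapamycin (adjusted p = 0.0246), per the authors' deposited table. Mapk14, which encodes p38 alpha, rose by 0.76 under restriction (adjusted p = 3.83e-05), Map2k3 by 0.74 (adjusted p = 0.00264), and Map3k4 fell by 0.72 (adjusted p = 0.00113), per the authors' deposited table.

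Clock genes were called in several groups, and few glucocorticoid and fasting targets were. Of 15 clock genes 8 rose and 1 fell under restriction, 1 fell under rapamycin, none was called under metformin and 4 rose under TM5614, by DESeq2, per the authors' deposited table. Over all tested genes 19.0% were called under restriction, 1.39% under rapamycin, 0.245% under metformin and 3.96% under TM5614. Among those that rose under restriction were Cry1 (log2 fold change 2.08, adjusted p = 2.24e-11), Cry2 (1.64, adjusted p = 2.5e-10) and Per2 (2.51, adjusted p = 2.65e-10), per the authors' deposited table. Under TM5614 the genes that rose were Tef (1.17, adjusted p = 0.00250), Per3 (2.06, adjusted p = 0.00521), Dbp and Per2 (1.17, adjusted p = 0.0389), per the authors' deposited table. The output gene Dbp had 544 normalized counts under restriction, 34.2 under rapamycin, 629.7 under metformin and 644 under TM5614, against 177 in ad libitum livers, per the authors' deposited table. It rose under restriction (log2 fold change 1.62, adjusted p = 0.0222) and TM5614 (1.86, adjusted p = 0.0265) and fell under rapamycin (-2.37, adjusted p = 0.00787), per the authors' deposited table. Nr1d1, whose product REV-ERB alpha represses Cdkn1a in mouse liver, fell to 189 under restriction against 445 in ad libitum livers (-1.23, adjusted p = 0.000671), per the authors' deposited table. Its means under the drugs lay above the control and were not called, at 578 under rapamycin, 596 under metformin and 617 under TM5614. The part of Nr1d1 in the values of Cdkn1a was not tested. Of 12 glucocorticoid and fasting targets 1 was called under restriction, 1 under TM5614 and none under rapamycin or metformin, by DESeq2, per the authors' deposited table. Fkbp5, a glucocorticoid target, rose to 2131 under restriction against 537 in ad libitum livers (1.99, adjusted p = 0.0217), and Sgk1, another, fell under TM5614 (-1.06, adjusted p = 0.0488), per the authors' deposited table. The hour of collection is not stated, and the part of the clock or of hormones in the values of Cdkn1a and the Gadd45 genes was not tested.

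Some markers of other liver cells fell under rapamycin. The share of all tested genes called was 1.39% under rapamycin, 19.0% under restriction, 0.245% under metformin and 3.96% under TM5614. Lists this short say little where that share is low. Of 10 sinusoidal endothelial genes 3 fell under rapamycin and none was called in the other groups, by DESeq2, per the authors' deposited table. Their sum was 1811 normalized counts under restriction, 1259 under rapamycin, 1394 under metformin and 1843 under TM5614, against 2039 in ad libitum livers, per the authors' deposited table. Such sums have no test. Of 10 stellate and fibroblast genes 1 fell under rapamycin and 1 under restriction. The 10 summed to 2312 normalized counts under restriction, 1766 under rapamycin, 2057 under metformin and 2124 under TM5614, against 2311 in ad libitum livers, per the authors' deposited table. The 4 neutrophil genes summed to 72.2 under restriction, 170.1 under rapamycin, 62.8 under metformin and 72.8 under TM5614, against 108 in ad libitum livers, per the authors' deposited table. None was called, but an adjusted p was given for only 2 of the 4 under rapamycin, 3 under TM5614 and 0 under metformin. No gene of these lists was at 0 in any group. The part of these cells in the level of Cdkn1a was not tested.

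By the pattern of its group means Cdkn1a was most like Btg2, an antiproliferative p53 target. Likeness was the root mean square difference in log2(group mean / control mean) over the 4 interventions, among 1372 genes with all 5 means at 10 or more and a log2 range of at least 1. The difference from Cdkn1a was 0.25 for Btg2, 0.53 for Gadd45a, 0.54 for Tiparp, a target of the aryl hydrocarbon receptor, 0.55 for Irs2, an adaptor of the insulin receptor, and 0.55 for the kinase gene Map3k8. Btg2 had means of 1007 normalized counts under restriction, 1332 under rapamycin, 237 under metformin and 431 under TM5614, against 413 in ad libitum livers, per the authors' deposited table. Irs2 had 168 normalized counts under restriction, 481 under rapamycin, 87 under metformin and 106 under TM5614, against 139.8 in ad libitum livers, per the authors' deposited table. Gadd45b ranked 28 and Gadd45g 114 in this order, and Trp53inp1 ranked 1102. With 4 points that share a control mean, likeness is a description of these groups and no more.

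**Figure D5:**
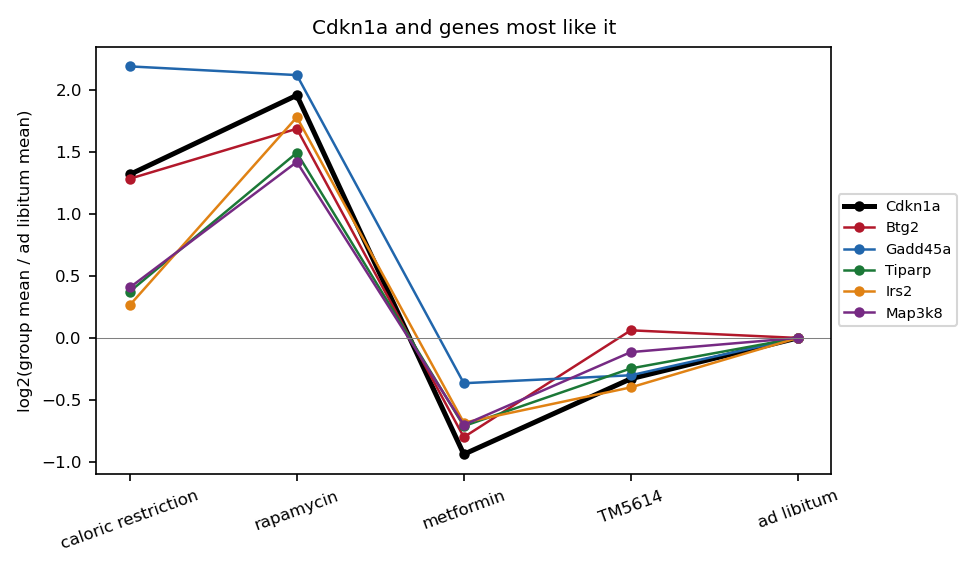
Lines link the 5 values of a gene, each the log2 of a group mean over the ad libitum mean, for Cdkn1a (black) and 5 of the 6 genes most like it, with ad libitum at 0. Every line lies above 0 under restriction and rapamycin, and Cdkn1a is at 1.96 under rapamycin and -0.94 under metformin.

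The 2 genes with a p53 response element in the promoter, Cdkn1a and Ccng1, had the patterns described above, and 3 other genes of the table carry one. Mthfd1, a folate enzyme, had 1656 normalized counts under restriction, 1962 under rapamycin, 1899.9 under metformin and 1892 under TM5614, against 2039 in ad libitum livers, and fell under restriction (log2 fold change -0.30, adjusted p = 0.0230), per the authors' deposited table. Rps27l, known as a p53 target, had 887 normalized counts under restriction, 1037 under rapamycin, 1091 under metformin and 939.5 under TM5614, against 944 in ad libitum livers, and was not called, per the authors' deposited table. Calhm2 had between 4.78 and 10.2 normalized counts over the 5 groups and was not called either, per the authors' deposited table. The part of the element in the values of these genes was not tested.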

How the data were processed

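Poly(A) RNA libraries were made from perfused whole liver, per the labels' protocols, and reads were aligned with HISAT2 2.0.5 to mm10, per the submitters' processing notes. Counter, strand setting and annotation: not given in the sources used here. Per the file headers, the deposited table of comparisons holds a normalized signal for each group (gene counts over size factors, averaged by the authors), a log2 fold change for each intervention and its adjusted p-value, and its name states DESeq2. A separate deposited table has 18 columns whose names match no label, and it was not used. The limma and edgeR fits and the omission of single libraries that were planned could not be run, so the authors' adjusted p, called at 0.05, took their place and no interval was computed. Counting depth per library is unknown.

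The 8 genes and all lists were chosen with earlier results of these data known. From the lists every called gene was to be named, up to 4 per list and direction by adjusted p, and otherwise up to 2 by mean, and likeness to Cdkn1a named the nearest 6; of the genes so chosen 2 are not reported here. Background shares cover all genes with an adjusted p, and ratios the 11201 genes whose mean over groups reached 10. Coordinates and exon lengths are from GENCODE vM21, promoters from RefSeq. Ratios, ranks and motif searches were computed with Python 3.11.15, pandas 2.3.3 and numpy 2.4.6 and tested on simulated data. Other thresholds, pseudocounts and scalings were tried as alternatives.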

Additional observations from a re-analysis of the deposited data

How the results depend on the processing

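At an adjusted p under 0.01 in place of 0.05, 0 of the 8 genes were called under restriction and 0 under TM5614, in the authors' deposited table, so that neither Trp53 nor Trp53inp1 passed. At 0.10, 1 was called under rapamycin, Cdkn1a. The 113 genes of the 10 lists outside the cell type markers include the clock genes and the glucocorticoid and fasting targets. Of these 113, 14 in place of 26 were called under restriction at 0.01, 1 in place of 3 under rapamycin and 4 in place of 7 under TM5614. At 0.05 clock genes gave 8 rises and 1 fall of the 26 under restriction and 4 of the 7 calls under TM5614. At 0.10 the number was 5 under rapamycin, 2 in place of 0 under metformin and 12 under TM5614. Of 24 alternative counts 15 stayed within 1.5 times the value given. Some of the 15 are counts of 0 under a stricter rule, which could not move. Those of the 8 genes under rapamycin and metformin at 0.01 are examples. A pseudocount of 1, centring on the median gene and rescaling without the 20 most abundant genes moved the log2 fold changes of the 8 genes by at most 0.10, with no change of sign. Set against the mean of the other 3 treated groups, Trp53inp1 changed sign under rapamycin, and Trp53 and Ccng1 did under TM5614. Values moved by up to 1.70, and Cdkn1a stood at 0.53 under restriction and -2.20 under metformin, Trp53inp1 at 1.77 under restriction, and Gadd45a at 1.21 under restriction and -2.06 under metformin. The 6 genes most like Cdkn1a shared 4 with the list from centred values and 4 with the list at a mean of 50 or more. No paired analysis was possible because the columns of values per library match no label, so no replicate block could be fitted. For the same reason leaving out single libraries was not run. Depth limits cannot be stated, since no count per library was used.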

Other observations

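Ccnd1, which encodes cyclin D1, a partner of p21, had its lowest means under rapamycin and restriction, where Cdkn1a had its highest. In the authors' deposited table Ccnd1 had means of 126 normalized counts under restriction, 93.4 under rapamycin, 393 under metformin and 446 under TM5614, against 217 in ad libitum livers. No comparison was called, with adjusted p values of 0.120, 0.0583, 0.598 and 0.0712 in that order in the authors' deposited table. This gene and those of the next sentences were picked after their values were seen.

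Foxo3 and Tsc22d3 had means under restriction nearer to the control than those under the 3 drugs. The authors' deposited table gives Foxo3 298 normalized counts under restriction, 97.2 under rapamycin, 88.8 under metformin and 107 under TM5614, against 261 in ad libitum livers. Tsc22d3, a glucocorticoid target, had 1416 under restriction, 588 under rapamycin, 671 under metformin and 611 under TM5614, against 1257 in ad libitum livers, in the authors' deposited table. Neither was called in any comparison. The mTOR inhibitor gene Ddit4 had 214 under restriction, 194 under rapamycin, 93.6 under metformin and 65.8 under TM5614, against 367 in ad libitum livers, in the authors' deposited table, with an adjusted p of 0.119 or more.

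Among the 13 genes with no adjusted p in any comparison were Fosb, Tnfaip3 and Rnd1. Fosb had 657 normalized counts under restriction against 25 in ad libitum livers, and Tnfaip3 had 727 and Rnd1 975 under rapamycin, against 43.6 and 40.8 in ad libitum livers, in the authors' deposited table.

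A further column of log2 fold changes is headed TM5441, a compound none of the labels names, and what it was compared with is not stated. In the authors' deposited table that column gives Cdkn1a 1.32, Trp53inp1 -1.15, Gadd45a -1.09 and Gadd45b -0.90, with no group mean and no adjusted p. It gives Ccng1 0.19, Trp53 0.11, Mdm2 0.06 and Gadd45g -0.05. Pancreatic markers run from -23.83 to -3.74 in it.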
